A study of Homo sapiens with 18 samples.

Results

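The RNA regions described here were acRIP-seq peaks that were listed in NAT10-KD PANC-1 cells, shared no base with any peak of the control cells on the same strand, and lay in the coding sequence (CDS) or 3' UTR of an expressed mRNA. They are called knockdown-only peaks below. PANC-1 is a cell line from a human pancreatic ductal carcinoma. In both groups the cells carried a lentiviral shRNA vector, directed against NAT10 in shNAT10 cells and a control in shCtrl cells, which the labels call an empty vector and the methods of the study a non-targeting shRNA. RNA-seq comprised 3 libraries per group and acRIP-seq 3 immunoprecipitated (IP) and 3 input libraries per group, with 1 list of peaks deposited for each group. The labels do not say which hairpin was used, or whether libraries came from separate cultures, so that the p-values of RNA-seq measure the spread between these libraries only.

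N4-acetylcytidine (ac4C) is an acetylated form of cytidine found in rRNA, tRNA and, as proposed, in mRNA. NAT10, a nucleolar RNA acetyltransferase, is the enzyme known to deposit it. In acRIP-seq, fragments of RNA are pulled down with an antibody against ac4C and compared with the fragments before the pull-down, so that a peak marks a stretch where the IP exceeds the input and not a single modified base.

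Of the 15813 peaks in the shNAT10 list, 11484 shared no base with a control peak, and 9259 of these were on genes with a mean FPKM (reads per length of the gene and per depth of the library) of at least 1 in both groups. The spliced midpoint of 7370 of them lay on the longest coding transcript of the gene, with 282 in the 5' UTR, which left 7088 knockdown-only peaks on 4486 genes. Both lists together held 32705 peaks. By the same steps the shCtrl list of 16892 peaks gave 7974 control-only peaks on 4780 genes, and 2859 shNAT10 peaks in coding mRNAs overlapped a control peak. The regions were chosen by the overlap of the 2 peak lists, the mean FPKM and the place on the mRNA, so their overlap, fold enrichment and peak p-value are given as a description without a test.

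Some of the peaks with the smallest p-value or the highest fold enrichment in the CDS are shown here, to give an idea of the sequences the list holds. Each line gives 30 bases of the mRNA inside the peak, 5′ to 3′ and with T for U, from the GENCODE v29 transcript on GRCh38. Capitals mark the longest run of a C followed by any 2 bases (CNN) within the peak. The stretch was picked for that run, so that its presence is no result.
MT-ATP6: tctattgatCCCCACCTCCAAatatctcat
RPL5: gccaggtgcCTTCACCTGCTAtttggatgc
TPM2: ggagaaCGCCATCGACCGCGCCGAgcaggc
PSMB5: tctctgtagCAGCTGCCTCCAaactgcttg
MYO6: aaaacttagCTTCATCAGCGTgggaaacaa
RASSF5: gcaCATCAGCAGCACCACCACCGTCAGtga
COL6A1: gctccggggCGACCCCGGCTTtgagggaga
The stretch of RPL5 was at chr1:92836279-92836308 on the plus strand, that of TPM2 at chr9:35689744-35689773 on the minus strand, and that of PSMB5 at chr14:23033446-23033475 on the minus strand. That of MYO6 was at chr6:75867069-75867098 and that of RASSF5 at chr1:206584566-206584595, both on the plus strand. MT-ATP6 was read at positions 8610 to 8639 of the mitochondrial chromosome, on the plus strand. The stretch of COL6A1 crossed an intron between chr21:45987630 and 45989088, on the plus strand. The run was 8 CNN long in RASSF5, 6 in TPM2 and 4 in the others, and the C stood at the third codon position in 6 of these 7 stretches and at the second in PSMB5.

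Knockdown-only peaks lay mostly in the CDS. The CDS held 4272 of the 7088 (60.3%, 95% Wilson interval 59.1% to 61.4%) on 3083 genes, and the 3' UTR held 2816 on 2187 genes. The CDS made up 47.3% of the combined CDS and 3' UTR length of these mRNAs. Of the control-only peaks 60.6% were in the CDS (59.5% to 61.7%), and of the shNAT10 peaks that overlapped a control peak 62.7% (61.0% to 64.5%). Intervals of shares cover counting error only, and the 1 list per group allows no replicate check. Among all coding-mRNA peaks of the shNAT10 list, 71.3% (70.4% to 72.1%) shared no base with a control peak, and among those of the shCtrl list 73.6% (72.8% to 74.4%) shared none with a shNAT10 peak.

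**Figure D1:**
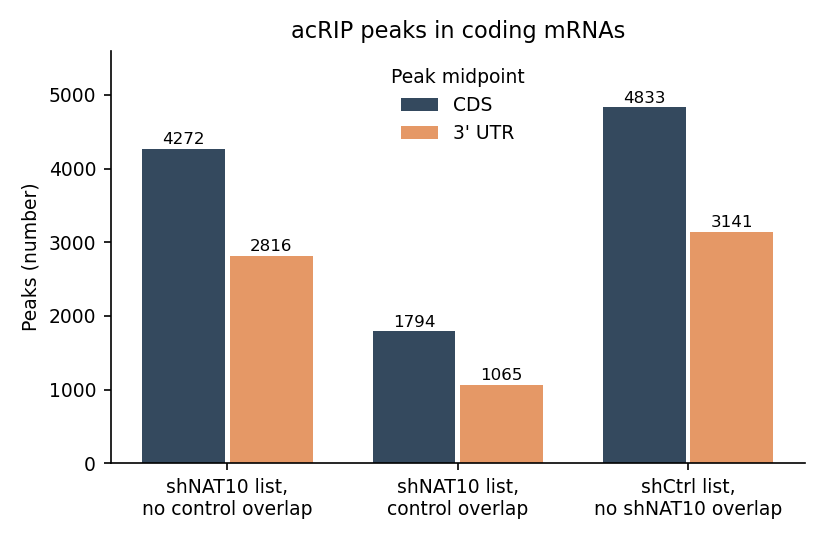
Number of acRIP peaks in coding mRNAs (vertical axis) whose midpoint lay in the CDS or the 3' UTR, for shNAT10 peaks without and with a control overlap and for shCtrl peaks without a shNAT10 overlap. The 4272 CDS and 2816 3' UTR peaks of the knockdown-only set stand beside 4833 and 3141 in the control-only set.

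The knockdown-only peaks had a median fold enrichment of IP over input of 34.1 (quartiles 10.3 and 146, range 1.19 to 7850) and a median length of 211 bases. Their median log10 p was -129. Peaks that overlapped a control peak had a lower median fold enrichment, 21.8, with a median log10 p of -172 and a median length of 240 bases. The control-only peaks had a median fold enrichment of 38.5 and a median log10 p of -121. Within the knockdown-only set the median was 27.3 in the CDS and 55.4 in the 3' UTR. Their blocks spanned an intron in 42.7%, and 48 of the 7088 had a false discovery rate of 0.05 or more in the list.

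Fold enrichment went down with the RNA level of the gene. For shNAT10 peaks the level was the mean FPKM in shNAT10, and for control-only peaks that in shCtrl. The median fold enrichment was 278 for the 287 knockdown-only peaks whose gene had a mean FPKM of 1 to 2, 49.8 for the 1810 at an FPKM of 8 to 16, and 4.64 for the 537 at 64 or more. The control-only peaks ran from 256 to 5.06 over the same limits of FPKM, and the overlapping peaks from 285 to 5.92. A high fold enrichment therefore went with a low RNA level in each of the 3 sets, and the part of the RNA level in it was not tested.

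**Figure D2:**
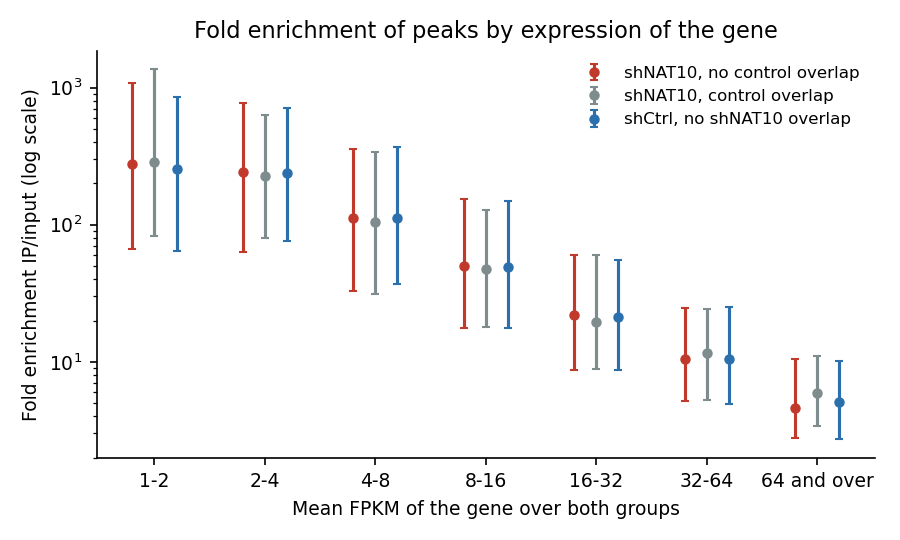
Fold enrichment of IP over input (vertical, log axis) against the mean FPKM of the gene (horizontal) for the 3 sets of peaks, with points at the median and bars at the quartiles. The mean FPKM is that of shNAT10 for shNAT10 peaks and of shCtrl for control-only peaks, and not over both groups as the axis label reads. The medians of the knockdown-only peaks go from 278 at the lowest to 4.64 at the highest expression, beside 256 and 5.06 in the control-only peaks.

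Along the CDS the knockdown-only peaks were spread with small differences, with 8.45% of the 4272 (7.65% to 9.32%) in the first of 10 equal bins, 11% (10.1% to 11.9%) in the ninth and 9.83% in the last. In the 3' UTR their share went from 14.0% in the first bin to 4.12% in the last. Within 200 bases of the stop codon lay 12.6% of the knockdown-only peaks (11.9% to 13.4%), 14.8% of those that overlapped a control peak (13.6% to 16.2%) and 12.4% of the control-only peaks (11.7% to 13.1%).

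The sequence of the peaks was not used to choose them. Of the 2839 knockdown-only CDS peaks that lay whole on the transcript, 54.7% (52.8% to 56.5%) held CNN repeated 4 times on the mRNA strand. For the 2700 with room for windows of the same length elsewhere in the same CDS, the share was 54.0% in the peaks and 55.0% in the windows. In the 3' UTR it was 38.9% in the peaks and 37.5% in the windows, over 2630 peaks. The control-only CDS peaks held the repeat in 56.0%, beside 56.3% of their windows. CNN repeated 2 times was found in 99.8% of the knockdown-only CDS peaks and in 99.8% of their windows. C made up 24.9% of bases both inside and outside the CDS peaks, and 21.3% inside beside 20.2% outside those in the 3' UTR. Of the C in the CDS peaks 36% stood at the third codon position, and 35.1% of those outside the peaks.

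Most knockdown-only peaks were on mRNAs that also had a peak in control cells. Of the 7088, 73.0% (71.9% to 74.0%) were on a gene with at least 1 control peak of any kind, and of the control-only peaks 71.6% were on a gene with a shNAT10 peak. Of the 4486 genes, 2569 (57.3%) also had a control-only peak in a coding mRNA, and 1112 (24.8%) also had a peak that overlapped between the lists. Counted by gene, 68.8% of the 4486 had a control peak of any kind, beside 47.3% of the expressed coding genes without a knockdown-only peak. The latter had shorter transcripts (median 2916 beside 4236 bases) and a lower median level in shCtrl (8.73 beside 12.5 FPKM). Where a knockdown-only and a control peak were on the same transcript, the spliced distance to the nearest control peak had a median of 528 bases (quartiles 208 and 1224, n = 5095). A control peak lay within 100 bases of the spliced mRNA for 10.2% of the knockdown-only peaks and within 500 bases for 34.8%.

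At the edge of the overlap rule, the nearest pair in the set by distance on the genome was on MXD3, whose peak lay 4 bases from a control peak. On the other side, 192 peaks shared exactly 1 base with a control peak, such as that on PAPSS1, and were left out. At the edge of the expression rule stood PGBD4 with a mean FPKM of 1.002 inside it and NECAP1 with 0.9912 outside.

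Genes with a knockdown-only peak made up 42.0% of the 10679 expressed coding genes, and genes with a control-only peak 44.8%. The share with a knockdown-only peak was 23.9% in the shortest of 4 equal bins of transcript length and 59.7% in the longest. For control-only peaks these shares were 27.5% and 63.6%. Per kilobase of transcript there were 0.182 knockdown-only peaks in the shortest bin and 0.149 in the longest, and 0.221 and 0.17 control-only peaks. By RNA level the share with a knockdown-only peak was 29.2% in the lowest of 4 bins and 49.9% in the highest, beside 31.0% and 54.3% for control-only peaks. A single knockdown-only peak was found on 2808 genes, 2 on 1110, 3 on 354, and 4 or more on 214.

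The smallest p-values in the CDS were on MT-ATP6, RPL5, TPM2, RPL8, PSMB5 and MYO6. MT-ATP6 encodes a subunit of the mitochondrial ATP synthase, and RPL5 and RPL8 are proteins of the large ribosomal subunit. Their peaks had a fold enrichment of 2.99, 4.81 and 7.62. These genes have near-identical copies in the genome, and how reads were shared among copies is not given in the sources used here, so their values are uncertain. MT-ATP6 also shares 6.9% of its exon bases with a neighbour on the same strand. TPM2, a muscle and cytoskeletal tropomyosin, had a peak of 271 bases at chr9:35689239-35689941 with a fold enrichment of 28.8 and no peak in control cells. Its FPKM was 92.3, 129 and 96.3 in shCtrl and 131, 129 and 124 in shNAT10, and the groups overlapped (log2 fold change 0.29 ± 0.13 SE, adjusted p = 0.108). Without the second shCtrl library it was 0.44 with an adjusted p of 0.000214.

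PSMB5, a catalytic subunit of the proteasome, had its knockdown-only peak at chr14:23033442-23034542 with a fold enrichment of 118, and 2 control peaks, the nearest 8 bases away on the mRNA. The PSMB5 level was 71.8, 96.5 and 74.9 FPKM in shCtrl and 25.9, 23.2 and 24.0 FPKM in shNAT10. All 3 shNAT10 libraries were below all 3 shCtrl libraries, and PSMB5 fell by 1.72 on the log2 scale (SE 0.12, adjusted p = 0.000136). MYO6, a myosin that moves towards the minus end of actin filaments, had 4 knockdown-only and 4 control peaks, none of which shared a base. Its level was 22.5, 15.6 and 20.9 FPKM in shCtrl and 20.3, 21.4 and 22.2 FPKM in shNAT10, so that the groups overlapped.

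In the 3' UTR the smallest p-values were on ACTG1, ZFP36L1, MYL12A, CAPZA1, FAM149B1 and CLN6. ZFP36L1, which binds AU-rich elements and promotes mRNA decay, had a peak of 721 bases at chr14:68788590-68789310 with a fold enrichment of 533. The ZFP36L1 mRNA was at 13, 11.6 and 13.6 FPKM in shCtrl and at 8.81, 6.87 and 7.50 FPKM in shNAT10, without overlap, and fell by 0.72 on the log2 scale (SE 0.11, adjusted p = 0.00267). ACTG1, the cytoplasmic gamma-actin, and MYL12A, a myosin regulatory light chain, are cytoskeletal mRNAs of high level. MYL12A went from a mean of 341 ± 46.4 FPKM (SD, n = 3) to 232 ± 6.71 FPKM and fell by 0.55 on the log2 scale (adjusted p = 0.00562). ACTG1 has many processed copies in the genome and is uncertain for that reason.

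The highest fold enrichments belonged mostly to mRNAs of low level, with GNB4 as an exception. In the CDS they were on RASSF5, a Ras-association protein (fold enrichment 5280), COL6A1, a chain of type VI collagen (5270), and PLCL2, a phospholipase C-like protein (4380). In the 3' UTR they were on DENND1B, an exchange factor for Rab35 (7850), GNB4, a G-protein beta subunit (5890), and ABCA1, a cholesterol exporter (5800). Mean control levels were 1.33 FPKM for RASSF5, 1.58 FPKM for PLCL2, 1.45 FPKM for DENND1B and 2.93 FPKM for ABCA1. GNB4 was at 10.5 FPKM. COL6A1 was at 3.86, 4.24 and 4.30 FPKM in shCtrl and at 2.52, 2.49 and 2.07 FPKM in shNAT10, and fell by 0.79 on the log2 scale (SE 0.12, adjusted p = 0.00205). Its peak began 24 bases from a control peak, and the gene had 6 control peaks in all. PLCL2, DENND1B and GNB4 had none.

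Several long mRNAs carried many knockdown-only peaks. PRKDC, the catalytic subunit of DNA-dependent protein kinase, UTRN, the dystrophin relative utrophin, ABL2, a tyrosine kinase, and AGO2, the slicer of the RNA-induced silencing complex, had 8 each, and EIF4EBP2, an inhibitor of cap-dependent translation, had 7. In ABL2 6 of the 8 were in the 3' UTR, and the fold enrichment of the 8 ranged from 4.64 to 1600. In AGO2 7 of the 8 were in the 3' UTR, with fold enrichments of 13.6 to 1470 over all 8. All 8 in PRKDC were in the CDS, with fold enrichments of 1.73 to 10.9. The same genes had between 1 control peak (ABL2 and EIF4EBP2) and 6 (PRKDC).

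The AGO2 level was 11.9, 6.82 and 9.80 FPKM in shCtrl and 4.05, 3.93 and 4.11 FPKM in shNAT10, without overlap, and AGO2 fell by 1.18 on the log2 scale (SE 0.19, adjusted p = 0.00289). EIF4EBP2 stood at 22.2, 20 and 21.2 FPKM in shCtrl and at 14.6, 13.4 and 14.8 FPKM in shNAT10, and fell by 0.56 (SE 0.07, adjusted p = 0.00142). PRKDC was at 68.2, 30 and 50.8 FPKM in shCtrl and at 79.4, 73.7 and 82.3 FPKM in shNAT10. The groups did not overlap, but the log2 fold change of 0.74 (SE 0.27) of PRKDC did not pass the test (adjusted p = 0.0625). Without the second shCtrl library it was 0.41 with an adjusted p of 0.0197, and without the first it was 1.00 with an adjusted p of 0.0091. UTRN had 21.6, 8.02 and 15.4 FPKM in shCtrl and 21.2, 19.2 and 22.8 FPKM in shNAT10, which overlapped. The low value of PRKDC and UTRN in shCtrl was that of the second library in both.

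A group of 26 genes had 4 or more knockdown-only peaks and no control peak of any kind, and 24 genes had 4 or more control-only peaks and no shNAT10 peak. ATM, the kinase that responds to DNA double-strand breaks, came first in the former group, with 6 such peaks in the CDS and 1 in the 3' UTR, at fold enrichments of 12.4 to 272. Its strongest peak was at chr11:108253907-108257582, over 3 exons. The ATM level was 18.0, 9.0 and 14.8 FPKM in shCtrl and 15.7, 15.8 and 18.4 FPKM in shNAT10, and the groups overlapped. SERBP1, an mRNA-binding protein of the ribosome, had 6 with no control peak, 1 of them in the CDS, and SCAF8, which binds the tail of RNA polymerase II, had 6, all in the CDS. SERBP1 and SCAF8 were chosen after their values were seen.

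The RNA-seq libraries were made apart from the acRIP libraries, and of RNA-seq the rule used only a minimum level. The depth, worked out from the smallest steps of the FPKM values, was between 15831692 and 23521741 reads per library. The targeted gene was lower in every shNAT10 library. NAT10 was at 31.6, 27.7 and 28.6 FPKM in shCtrl and at 7.92, 8.43 and 7.90 FPKM in shNAT10, and fell by 1.84 on the log2 scale (SE 0.08, adjusted p = 3.85e-05). It carried 3 control peaks, all control-only and in the CDS, and no shNAT10 peak. All 6 markers of ductal epithelium examined were at an FPKM of at least 1 in both groups (3.98 to 1739). The means of KRT7, KRT8, KRT18 and KRT19 were lower in shNAT10, with KRT8 at 766 beside 1739 FPKM. EPCAM went from 4.87 FPKM in shCtrl to 22.6 FPKM in shNAT10, and MUC1 from 3.98 to 4.49 FPKM. Of 10 markers of other cell types, 8 were under 1 FPKM in both groups and CD3E, MS4A1 and INS were listed at 0. CD14 was at 2.53 FPKM in shCtrl and 1.46 FPKM in shNAT10, and COL3A1 at 0.776 FPKM and 1.96 FPKM.

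The second shCtrl library stood apart by transcript length. Against the other shCtrl libraries, expressed coding genes in the shortest of the 4 length bins were higher by a median of 0.31 on the log2 scale, and those in the longest were at -0.32. For the first shCtrl library these medians were -0.23 and 0.24. Within the shNAT10 group they stayed between -0.05 and 0.05 for each library. As genes with long mRNAs more often had a knockdown-only peak, the counts of higher and lower genes are given with and without the second shCtrl library. In bulk RNA, fewer cells with an mRNA and less of it per cell cannot be told apart.

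All 4486 genes with a knockdown-only peak entered the RNA-seq test, which needed 1 FPKM in 3 or more libraries. Of them 1120 (25%) were higher in shNAT10 cells and 937 (20.9%) were lower, at an adjusted p under 0.05 by limma. Over all 12982 genes tested, 20.8% were higher and 21.2% were lower. Among the 10679 expressed coding genes, which met the same FPKM limit in both groups, 22.0% were higher and 22.5% lower. The median log2 fold change was 0.04 for genes with a knockdown-only peak and -0.01 for all genes. Past a log2 fold change of 1, 113 genes with a knockdown-only peak were higher (2.52%) and 113 were lower (2.52%). These shares were 2.39% and 2.86% for expressed coding genes, and 2.91% and 3.57% for all genes. Genes with a mean below 1 FPKM in 1 group could be among all genes tested but not in this set. The split moved with the setting, to 188 higher and 87 lower on the TPM scale. It was 94 and 123 without the second shCtrl library, and 151 and 115 without the first. Counts over all genes past this limit were not made for these settings, so these moves cannot be told apart from a shift of all genes. With FPKM rescaled to TPM the split of calls was 1304 higher and 647 lower, which moved the share of higher genes among the calls from 54.4% to 66.8%. All genes moved the same way, with 3387 higher and 2159 lower of 16011 tested on the TPM scale and a median of 0.092. Without the second shCtrl library 1346 were higher (30%) and 1226 lower (27.3%), beside 26.1% and 25.1% of all genes, and the median was 0.01. Among expressed coding genes 27.3% were then higher and 27.5% lower. Without the third shNAT10 library the lower genes numbered 608, beside 1766 lower among all 12747 genes tested.

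Genes with peaks in the CDS and in the 3' UTR, some of which have both, were counted apart. Of the genes with a knockdown-only peak in the CDS, 748 of 3083 were higher and 643 lower, and of those with one in the 3' UTR, 584 of 2187 were higher and 447 lower. The counts without the second shCtrl library were 905 and 837 for the CDS and 684 and 614 for the 3' UTR. Genes with a knockdown-only peak and no control peak were higher in 280 (20%) and lower in 353 (25.2%) of 1401, and 354 and 411 without the second shCtrl library. Expressed coding genes with no peak in either list were higher in 18.0% and lower in 25%, and in 22.9% and 28.5% without that library. Genes that had both a knockdown-only and a control-only peak were higher in 28.3% and lower in 17.6% of 2569. Without the second shCtrl library these last shares were 33.0% and 25.3%. The median transcript was 4909 bases for genes with both kinds of peak. It was 3467 bases with a knockdown-only and no control peak, and 2753 bases with no peak in either list. The part of length in these shares was not tested.

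Genes with 4 or more knockdown-only peaks had long transcripts, with a median of 7710 bases. Of these 214 genes 63 were higher (29.4%) and 28 lower (13.1%), with a median log2 fold change of 0.20. Without the second shCtrl library 66 were higher and 50 lower, and the median was 0.02. Within the longest length bin, the median log2 fold change was 0.16 for the 1593 genes with a knockdown-only peak and 0.13 for the 1077 without. Both medians were 0.03 without the second shCtrl library. In the shortest bin they were -0.18 with and -0.17 without such a peak.

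**Figure D3:**
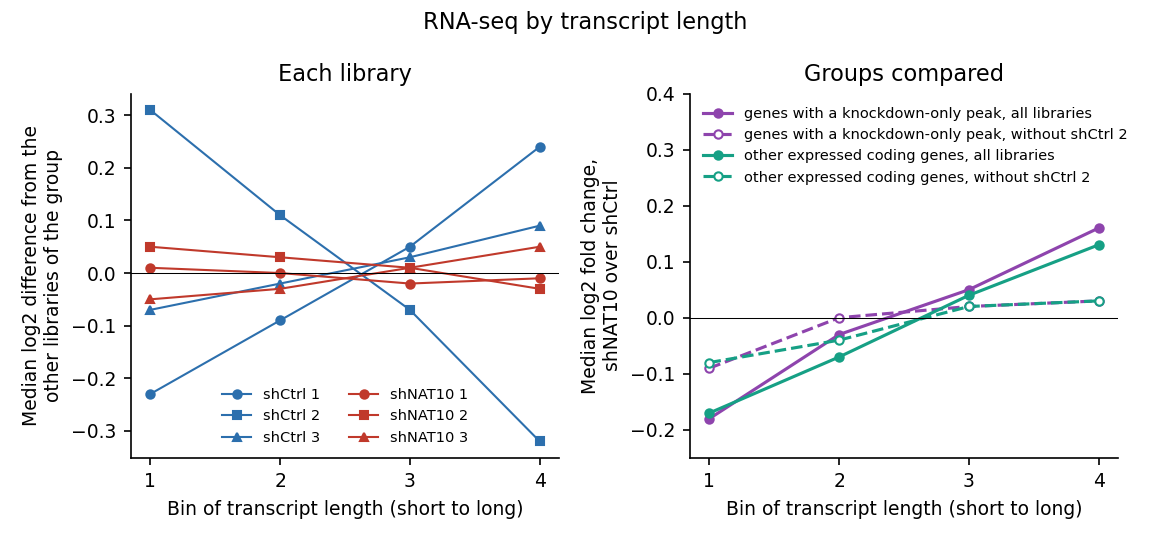
Left, the median log2 difference of each RNA-seq library from the other libraries of its group in 4 equal bins of transcript length; right, the median log2 fold change of shNAT10 over shCtrl in the same bins for expressed coding genes with and without a knockdown-only peak, with all libraries (solid) and without the second shCtrl library (dashed). The second shCtrl library goes from 0.31 to -0.32, and in the longest bin both sets of genes go to 0.03 when it is left out.

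The largest rises among genes with a knockdown-only peak were those of SETD7, BICD2, KIF1C, ZNF664 and ZW10. SETD7, a lysine methyltransferase, was at 4.74, 2.42 and 3.98 FPKM in shCtrl and at 21.0, 21.1 and 22.6 FPKM in shNAT10 (log2 fold change 2.56 ± 0.22 SE, adjusted p = 0.000281). Its single knockdown-only peak was in the 3' UTR with a fold enrichment of 4.25, and the gene had 6 control peaks. BICD2, an adaptor of the dynein motor, was at 2.56, 1.91 and 2.06 FPKM in shCtrl and at 12.3, 11.9 and 11.6 FPKM in shNAT10 (log2 fold change 2.41 ± 0.12 SE, adjusted p = 5.07e-05). It had 2 knockdown-only peaks and no control peak. KIF1C, a kinesin that carries cargo along microtubules, rose by a log2 fold change of 2.11 (adjusted p = 3.47e-05). ZNF664, a zinc finger protein, rose by 1.93 (adjusted p = 5.07e-05). ZW10, a kinetochore protein of the spindle checkpoint, went from 6.47, 6.89 and 6.54 FPKM to 23.6, 23.7 and 24.4 FPKM (log2 fold change 1.83 ± 0.06 SE, adjusted p = 3.22e-05), with 1 knockdown-only peak in the CDS and no control peak.

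The largest falls were those of IFIT3, LRRC8B, SLC43A2, LGALS3BP and CD82. IFIT3, an interferon-induced antiviral protein, was at 5.24, 5.78 and 5.55 FPKM in shCtrl and at 1.16, 0.763 and 1.38 FPKM in shNAT10, and fell by 2.26 on the log2 scale (SE 0.20, adjusted p = 0.000309). LRRC8B, a subunit of volume-regulated anion channels, was at 12.3, 7.77 and 10.8 FPKM in shCtrl and at 1.83, 2.06 and 2.34 FPKM in shNAT10, and fell by 2.24 (adjusted p = 0.000225). It had 3 knockdown-only peaks. CD82, a tetraspanin, was at 4.33, 4.73 and 4.55 FPKM in shCtrl and at 1.08, 1.15 and 0.914 FPKM in shNAT10, and fell by 2.02 (SE 0.13, adjusted p = 9.73e-05). It too had 3 knockdown-only peaks, and no control peak. LGALS3BP, a secreted galectin-binding glycoprotein, fell by 2.14 (adjusted p = 5.68e-05) and SLC43A2, an amino acid transporter, by 2.18 (adjusted p = 0.000161). As the choice of these 10 genes required, their 3 shNAT10 libraries did not overlap the 3 shCtrl libraries. Rises and falls were both part of that choice, so that finding both here is no result.

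**Figure D4:**
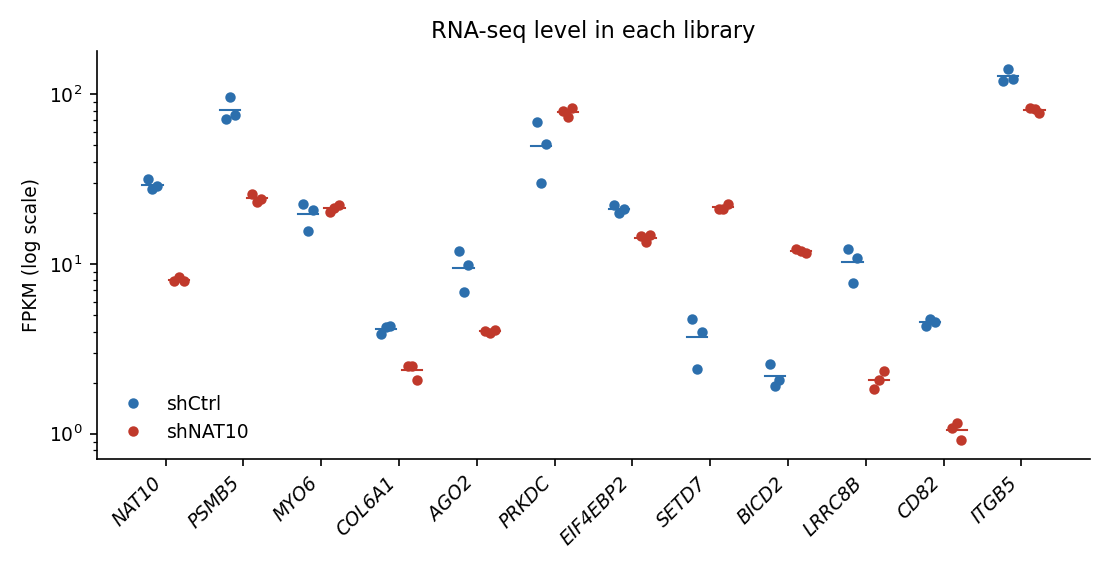
FPKM (vertical, log axis) of NAT10 and of 11 genes with a knockdown-only peak in each RNA-seq library, with shCtrl in blue, shNAT10 in red and a line at the mean of each group. NAT10, PSMB5, COL6A1, AGO2, EIF4EBP2, LRRC8B, CD82 and ITGB5 are lower in all 3 shNAT10 libraries, and SETD7, BICD2 and PRKDC are higher in all 3.

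Gene lists from general knowledge were then read for knockdown-only peaks, beside the 42.0% of all expressed coding genes and the 20.8% higher and 21.2% lower over all genes tested. Of the expressed coding genes 22.0% were higher and 22.5% lower. For control-only peaks the share of all expressed coding genes was 44.8%. Among mitosis and spindle genes, 45 of 77 expressed genes (58.4%, 47.3% to 68.8%) had a knockdown-only peak, and 48 had a control-only peak. Of the 45, 28 were higher in shNAT10 cells and 2 lower, with a median log2 fold change of 0.44 (33 and 3 without the second shCtrl library). KIF22, a chromosome-arm kinesin, and BUB3, a spindle checkpoint protein, had the strongest peaks and did not pass the RNA-seq test (adjusted p = 0.712 and 0.197). BIRC5, which encodes survivin, a subunit of the chromosomal passenger complex, was at 15.1, 19.4 and 14.9 FPKM in shCtrl and at 48.6, 49.1 and 46.4 FPKM in shNAT10 (log2 fold change 1.55 ± 0.11 SE, adjusted p = 0.000147). CDC27, a subunit of the anaphase-promoting complex with 6 knockdown-only peaks, fell by 0.45 on the log2 scale (adjusted p = 0.012), a call lost without the first shNAT10 library (adjusted p = 0.0527) and on the TPM scale (-0.35, adjusted p = 0.0887). BIRC5, CDC27 and the genes given below as the largest change of a list were chosen after their values were seen.

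Of 84 expressed genes of DNA replication and repair 40 had a knockdown-only peak and 41 a control-only peak. Of the 40, 14 were higher and 2 lower (16 and 3 without the second shCtrl library). XRCC1, a scaffold of single-strand break repair, had 3 knockdown-only peaks and no control peak, and rose from 5.45 ± 0.621 FPKM (SD, n = 3) to 7.61 ± 0.326 FPKM (log2 fold change 0.48, adjusted p = 0.0085). RRM2, the small subunit of ribonucleotide reductase, was at 16.6, 18.3 and 16.9 FPKM in shCtrl and at 6.71, 7.96 and 7.75 FPKM in shNAT10, and fell by 1.20 (SE 0.09, adjusted p = 0.000167). Most of the called genes of this list rose, and RRM2 was the larger of the falls.

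Of the 79 genes of cytosolic ribosomal proteins, which have short mRNAs (median transcript 1171 bases) and a median level of 157 FPKM, 23 (29.1%, 20.3% to 39.9%) had a knockdown-only peak. A control-only peak was found on 21 of the 79. None of the 23 was higher at an adjusted p under 0.05 by limma and 12 were lower, with a median log2 fold change of -0.39. At an unadjusted p under 0.05 these counts were 0 and 14, and 1 was higher and 13 lower without the second shCtrl library, with a median of -0.25. RPL27 was at 109, 162 and 118 FPKM in shCtrl and at 80.7, 91.8 and 84.1 FPKM in shNAT10, and fell by 0.58 (adjusted p = 0.0178), a call lost without the first or the third shNAT10 library (adjusted p = 0.0675 and 0.0605). Near-identical copies make these values uncertain.

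Of 64 translation factors and tRNA synthetases 35 had a knockdown-only peak and 40 a control-only peak. Of the 35, 10 were higher and 7 lower (14 and 9 without the second shCtrl library). LARS, the leucyl-tRNA synthetase, rose by a log2 fold change of 0.42 (adjusted p = 0.00606), and EIF2S3, a subunit of the initiation factor that brings the initiator tRNA, was at -0.01 (adjusted p = 0.903). EIF3B rose by 0.61 (adjusted p = 0.00122) and EIF3D, of the same initiation complex, fell by 0.60 (adjusted p = 0.00103). Among 70 pre-mRNA splicing factors 43 had a knockdown-only peak and 38 a control-only peak. Of the 43, 6 were higher and 9 lower (10 and 17 without the second shCtrl library), with a median log2 fold change of -0.05. On the TPM scale 7 were higher and 6 lower, and the median turned to 0.06. HNRNPUL1 was at 81.3, 79.2 and 79.5 FPKM in shCtrl and at 30.6, 30.7 and 30.4 FPKM in shNAT10, and fell by 1.39 (SE 0.06, adjusted p = 3.84e-05). SRSF6, a serine-arginine rich splicing factor, fell by 0.48 (adjusted p = 0.000866), whereas HNRNPA3, a nuclear RNA-binding protein, rose by 0.48 (adjusted p = 0.00143).

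Of 92 chromatin regulators 61 had a knockdown-only peak (66.3%, 56.2% to 75.1%) and 74 a control-only peak. Of the 61, 19 were higher and 6 lower (22 and 10 without the second shCtrl library). ASH1L and NSD1, both methyltransferases of histone H3 lysine, had the strongest peaks, and neither passed the test, at log2 fold changes of 0.70 and 0.14 (adjusted p = 0.0755 and 0.598). ASH1L passed without the first shCtrl library (0.97, adjusted p = 0.0102) and without the second (0.38, adjusted p = 0.0407), and NSD1 turned to -0.09 without the second. KDM2A, a demethylase of the same histone, rose from 19.4 to 43.8 FPKM (log2 fold change 1.18, adjusted p = 0.000142), and EED, a core subunit of the Polycomb complex PRC2, fell by 0.76 (adjusted p = 0.00052). Of 75 ubiquitin ligases and deubiquitinases 53 had a knockdown-only peak and 57 a control-only peak. Of the 53, 11 were higher and 4 lower, with a median of 0.19 on the log2 scale (14, 9 and -0.01 without the second shCtrl library). The strongest peaks were on CBLB and MYCBP2, both ubiquitin ligases, with a fold enrichment of 1030 and 231. UBE3A, another ligase, rose from 6.59 to 16 FPKM (log2 fold change 1.27, adjusted p = 0.000208).

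Of the 10 lists, intracellular transport had the highest share, with a knockdown-only peak on 60 of 80 genes (75%, 64.5% to 83.2%) and a control-only peak on 62. Of the 60, 21 were higher and 14 lower (24 and 19 without the second shCtrl library). COPA, a coat subunit of vesicles that return from the Golgi, had 5 knockdown-only peaks, the strongest at a fold enrichment of 2270, and was at -0.18 on the log2 scale (adjusted p = 0.116). COPA was called lower without the second shCtrl library, at -0.25 (adjusted p = 0.00482). SEC23A, of the coat of vesicles leaving the endoplasmic reticulum, was at 38.3, 26.3 and 36.8 FPKM in shCtrl and at 13, 12.0 and 13.1 FPKM in shNAT10, and fell by 1.38 (adjusted p = 0.000535). Of 84 kinases and growth factor receptors 57 had a knockdown-only peak and 52 a control-only peak. Of the 57, 14 were higher and 11 lower (17 and 17 without the second shCtrl library). LYN, a Src-family kinase with 3 knockdown-only peaks and no control peak, was at 10.1, 9.56 and 10.5 FPKM in shCtrl and at 2.89, 3.06 and 3.47 FPKM in shNAT10, and fell by 1.65 (SE 0.09, adjusted p = 6.83e-05). PAK2, a kinase downstream of CDC42 and Rac, rose by 0.48 (adjusted p = 0.0192), a call lost without any 1 of the 3 shNAT10 libraries (adjusted p = 0.0549 to 0.0711). These lists differ in transcript length, and their median transcript was 1171 bases for ribosomal proteins and 4984 bases for intracellular transport.

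Of 54 expressed adhesion and extracellular matrix genes 38 had a knockdown-only peak (70.4%, 57.2% to 80.9%) and 34 a control-only peak (63.0%). The median transcript of the 54 was 5524 bases, beside 3462 bases over all expressed coding genes. Their median level in shNAT10 was 29.8 FPKM, and the part of length and level in these shares was not tested. Of the 38, 14 were higher and 9 lower, with a median log2 fold change of 0.07. Without the second shCtrl library 14 were higher and 15 lower, and the median turned to -0.07. THBS1, the matrix protein thrombospondin, had 6 knockdown-only and 5 overlapping peaks, and its log2 fold change was -0.32 (adjusted p = 0.072). Without that library THBS1 was called lower, at -0.43 (adjusted p = 0.00763). SDC1, the cell surface proteoglycan syndecan, was at 17, 20.5 and 17.7 FPKM in shCtrl and at 38.5, 38.7 and 37.0 FPKM in shNAT10 (log2 fold change 1.05 ± 0.09 SE, adjusted p = 0.000231). TLN2, a talin that links integrins to actin, fell by 0.98 (adjusted p = 0.0031).

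The study names 11 genes with these data, some of them chosen in part on these samples, so that they are not independent evidence. Of the 11, 6 had a knockdown-only peak and 9 a control-only peak. ITGB5, the integrin beta subunit at the centre of the study, had 7 shNAT10 peaks, of which 4 were knockdown-only. Of these 4, 3 were in the CDS, at fold enrichments of 11.3, 4.49 and 4.56, and 1 in the 3' UTR at 4.87. The strongest lay at chr3:124819796-124832976 over 3 exons, 59 bases of mRNA from a control peak. The 3 control peaks of ITGB5 each shared at least 1 base with a shNAT10 peak, but that in the CDS shared only 1. Its fold enrichment was 8.16, and that of the shNAT10 peak it touched was 1.59. The control peak in the 3' UTR shared 211 bases, at 4.25 in shCtrl and 3.59 in shNAT10. The control peak with its midpoint off the transcript shared 180 bases, at 6.11 and 3.94. ITGB5 was at 119, 140 and 123 FPKM in shCtrl and at 82.6, 81.2 and 77.8 FPKM in shNAT10, without overlap, and fell by 0.66 on the log2 scale (SE 0.08, adjusted p = 0.000902).

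BCAR1, a docking protein of focal adhesions, had 1 knockdown-only peak in the CDS at a fold enrichment of 33.3 and 1 control-only peak at 6.09. It fell by 0.78 (adjusted p = 0.00093). CDC42, a small GTPase of the actin cytoskeleton, had 1 in the 3' UTR at 19.9 and fell by 0.74 (adjusted p = 0.00042), although 57.1% of its exon bases also belong to a neighbouring gene of the annotation on that strand. DHX30, an RNA helicase, had 1 in the CDS at 131 and fell by 0.36 (adjusted p = 0.0124), a call lost without the second or the third shNAT10 library (adjusted p = 0.0508 and 0.054). DIAPH1, a formin that nucleates actin filaments, had 2 in the CDS at 72.7 and 15.1 and rose from 16.3 ± 1.03 FPKM (SD, n = 3) to 26.1 ± 0.626 FPKM (log2 fold change 0.68, adjusted p = 0.00057). PPP1R12C, a regulatory subunit of myosin phosphatase, had 1 in the CDS at 62.3 and rose by 0.36 (adjusted p = 0.0409). This call was lost without any single library other than the second shCtrl library, at adjusted p = 0.0719 to 0.131. JUN, MBD4, KDM4A, PXN and NAT10 itself had no knockdown-only peak.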

How the data were processed

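RNA-seq of 3 shCtrl and 3 shNAT10 PANC-1 libraries and 1 acRIP-seq peak list per group were used, grouped by their labels. The authors deposited FPKM values per gene and library. Per the labels, the submitters' processing notes name HISAT2 2, HTSeq 0.11.0 and DESeq2 1.22.2 with GRCh38, without a role; the peak caller is not given in the sources used here. For each peak the authors deposited its BED blocks, the ratio of IP over input as fold enrichment, its p-value, and as scores the log10 of this p-value and of the false discovery rate. With 1 list per group, peaks had no replicate test.

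The spliced midpoint placed each peak on the gene's longest coding transcript (GENCODE v29, GRCh38), and shared bases were counted over blocks on the same chromosome and strand. Sequences were read from GENCODE transcripts. Some sequences are not reported here. Windows of peak length, at steps of 30 bases outside peaks of either list, gave the sequence background.

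Differences between groups were fitted on log2(FPKM + 0.1) in limma 3.58.1 (R 4.3.3) with trended variance, for the 12982 genes that reached 1 FPKM in 3 or more libraries. P-values were adjusted by Benjamini-Hochberg over all these genes, and fold changes are on this log2(FPKM + 0.1) scale. FPKM are not counts, so no count test was used. The overlap and expression steps were tested on simulated data. Python 3.11.15, NumPy 2.4.6, pandas 2.3.3 and matplotlib 3.10.9 were used.

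The peaks, gene lists and tests were chosen with earlier results of these data known. Named were NAT10, the 6 CDS and 6 3' UTR peaks with the smallest p-value and the 3 of each with the highest fold enrichment, the 5 genes with the most peaks, the 5 largest rises and 5 largest falls at an adjusted p under 0.05 whose groups do not overlap, 2 genes of each list by peak p-value, and the genes the study names. The split by transcript length was added after seeing the data. The depth of each library was estimated by matching steps of the FPKM values to annotated gene lengths, with 47.1% to 50.8% of values within 0.05 reads of a whole number, so it is approximate.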

Additional observations from a re-analysis of the deposited data

How the results depend on the processing

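The number of knockdown-only peaks was 7088, and 3178 or 3730 remained when the 50% of the shNAT10 list with the highest fold enrichment or the lowest p-values was taken. The CDS share, 60.3%, was then 52.9% and 53.9%, and it was 61.9% at a mean FPKM of at least 5, 63.6% on the transcript with the longest CDS, 64.5% by the region with most bases, and, chosen after seeing the data, 58.6% with transcripts of any type that have a CDS. The share on genes with a control peak, 73.0%, was 77.8% when sharing needed 50% of both peaks, 71.1% with no control peak within 100 bases, 70.1% and 74.8% in the higher 50% by fold enrichment and by p-value, and 75.4% at an FPKM of at least 5. The share of CDS peaks with CNN repeated 4 times, 54.7%, was 61.6% in the higher 50% by fold enrichment and 31.1% for 5 repeats. Windows of the same CDS were not counted for the 1083 peaks of the former. For 5 repeats the share was 30.9% in the peaks with windows and 30.8% in the windows. The cause of these moves was not tested.

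Leaving out 1 RNA-seq library gave 757 to 1346 higher and 608 to 1226 lower genes, beside 1120 and 937. Over all genes tested the same fits gave 1717 to 3311 higher and 1766 to 3182 lower. The lowest count of lower genes, 608, was without the third shNAT10 library. With the replicate number as a block, 1060 were higher and 872 lower, beside 2524 higher and 2603 lower among all 12982 genes tested. The pairs with the same number correlated at -0.043, 0.064 and 0.107 in their deviations from the group means. The numbers were therefore not taken to pair the libraries. Of 1209 values of named genes under alternatives, 13 on 9 genes changed direction, all of genes that did not pass the test. On the TPM scale these were KIF22 at 0.05, PXN at 0.05, CBLB at 0.03, EIF2S3 at 0.10, BUB3 at 0.00 and JUN at 0.02. Over the fits without 1 library, the lowest and highest values were -0.12 and 0.07 for KIF22, -0.12 and 0.00 for CBLB, -0.14 and 0.17 for GNB4, -0.03 and 0.01 for EIF2S3, -0.09 and 0.33 for NSD1, and -0.02 and 0.24 for MYO6. A further 61 values on 16 genes lost the threshold and 19 on 11 genes gained it. With no read counts behind the peaks and 1 list per group, the precision of a peak is unknown.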
